A study of Homo sapiens with 9 samples.

Results

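The response of 293T cells to the fusion protein CIC::NUTM1 was measured by polyA RNA sequencing, as the difference between 3 libraries from cells given the fusion and 3 libraries from cells given an empty vector. These are 6 of the 9 libraries of the study. The other 3 libraries carry a related fusion, HA-CIC::DUX4. All 17576 genes that passed an abundance filter, of 62700 in the count table, were compared. 293T is a human embryonic kidney line. Every group was reverse transfected with plasmid using Fugene 6, and RNA was taken about 48 hours later. The control plasmid held no insert, and the fusion plasmid encoded HA-CIC(ex20)::NUTM1(ex6), a label that names exon 20 of CIC and exon 6 of NUTM1, with an HA tag. Each replicate was 300000 cells, transfected on a separate day. The measurements therefore describe transient overexpression in 1 cell line, where transfected and untransfected cells of a dish are measured together, so that fewer responding cells and less RNA per cell cannot be told apart.

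CIC is a DNA-binding repressor with an HMG box. It holds down genes that the receptor tyrosine kinase, RAS and ERK pathway switches on, among them the PEA3 factors ETV1, ETV4 and ETV5 and the feedback inhibitors of the DUSP, SPRY and SPRED families. Active ERK relieves that repression. NUTM1 is a testis protein known for binding the acetyltransferase p300, and fusions that join CIC to NUTM1 or DUX4 occur in aggressive sarcomas, where the fusion protein activates genes that CIC normally represses.

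Library totals ran from 16970771 to 33655445 counts over the 9 libraries, with the highest in empty-vector replicate 2. The TMM scaling factors were 0.975 to 0.989 in the CIC::NUTM1 libraries and 1.001 to 1.016 in all other libraries. The rows of CIC, NUTM1 and DUX4 were not analysed here, so the labels could not be checked through the transfected genes themselves. Of 20 genes typical of 293T cells, 18 passed the filter, and CRABP1 and DPPA4 had no count. Their summed level was 1990 to 2160 CPM with empty vector and 2060 to 2190 CPM with the fusion. Beneath this sum single genes moved in both directions. On the same scale VIM gave 574, 561 and 597 CPM with empty vector and 730, 669 and 685 CPM with the fusion. NEFM gave 663, 489 and 564 CPM with empty vector and 341, 395 and 284 CPM with the fusion. Of 13 leukocyte markers 3 passed the filter, with CD3E, CD3D, MS4A1 and HBB at 0 in all 6 libraries. Their sum was 1.28 to 3.49 CPM with empty vector and 5.1 to 6.42 CPM with the fusion. Of 22 markers of other lineages 12 passed, with MYOG and UMOD at 0 and a sum of 64.2 to 67.3 CPM against 76.4 to 86.7 CPM. These sums are counts over the plain library total, whereas the CPM values of single genes below are counts divided by the scaled library total, both on the usual CPM scale. The part of other cell types in the results below was not tested.

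CIC::NUTM1 raised many more genes than it lowered, and it raised them much further. With edgeR's quasi-likelihood F test and Benjamini-Hochberg adjustment over all tested genes, 2018 genes (11.5%) were higher and 673 (3.83%) lower at an adjusted p under 0.05, here called risen and fallen. Every count of risen or fallen list members below is to be read beside these shares. Log2 changes are given with their standard error after ±. Risen genes made up 75% of the called genes, a share that came to 61.0% when libraries were scaled by their totals alone and 61.7% with upper quartile factors. The median change was 0.80 on the log2 scale among risen genes and -0.34 among fallen genes. At a log2 change of 1 or more were 856 risen genes (4.87% of those tested) and, downwards, 9 fallen genes (0.0512%). Of the fallen genes 557 lay between -0.5 and 0. Calls of a fall were kept less often than calls of a rise when any 1 library was left out. Of the risen genes 1337 (66.3%) kept their call in each of 6 refits that left out 1 library, and of the fallen genes 160 (23.8%) did. The number of fallen genes was 447, 399 and 278 without empty-vector replicate 1, 2 and 3, and 444, 977 and 450 without CIC::NUTM1 replicate 1, 2 and 3. Below, control and fusion libraries 1 to 3 are these replicates, and a count given without 1 of them comes from such a refit, shown where it moved by more than 1.5 times. Without empty-vector replicate 3 risen genes were 85.5% of those called. At an unadjusted p under 0.05 there were 4734 genes, and in 5458 genes (31.1%) the libraries of the groups did not overlap.

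Rises were called over the whole range of expression, and falls chiefly in genes with more reads. When tested genes were split into 5 equal groups by their mean CPM over all 9 libraries, 9.56% rose in the lowest group and 14.0% in the highest. In the lowest, which ended at a mean of 1.40 CPM, all 336 risen genes reached a log2 change of 1 and 4 genes fell. Genes near 0 in the controls can be called higher but hardly lower, and some passed the filter only through a fusion group. Small changes are also harder to call at few reads, so the split does not show that the response differs by level. In the highest group 40 of 493 risen genes changed that much, and 198 genes (5.63%) fell. Of 13826 protein-coding genes 13.3% rose, of 2350 long non-coding RNAs 5.62% and of 708 pseudogenes 3.11%. For 216 risen genes no empty-vector library held more than 3 counts, a floor of 0.127 CPM. For those genes a lower bound of the fold is given in place of the fitted value. The risen genes together gained 42930 CPM, of which the 10 with the largest gain held 8.48%.

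**Figure D1:**
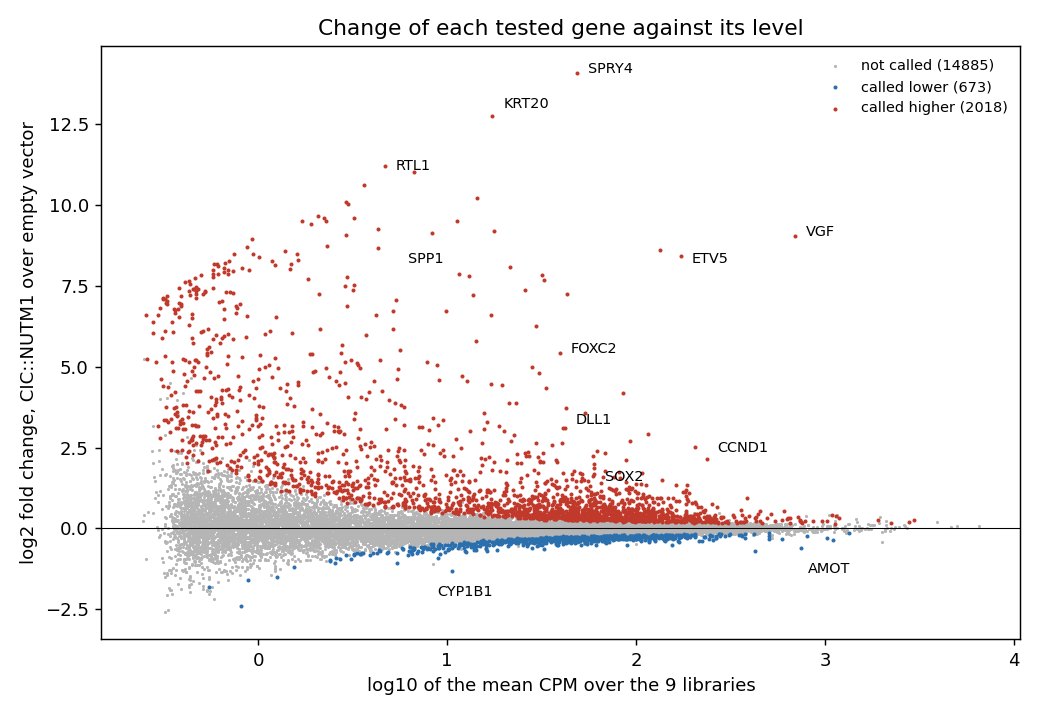
Log2 fold change of CIC::NUTM1 over empty vector (vertical axis) against the log10 of the mean CPM over the 9 libraries (horizontal axis), 1 point per tested gene. Red points are the 2018 genes called higher, blue points the 673 called lower and grey points the rest. Red points reach far above 0 at every level, whereas blue points stay close below 0. Values for genes at 0 in the controls depend on the fit and are not bounds.

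The genes that CIC itself binds and represses nearly all rose. Of 22 known CIC targets, 21 were tested, 19 rose and 0 fell, with a median change of 4.19 on the log2 scale against -0.0009 over all tested genes. The list was drawn up with earlier results of these data known and is not independent evidence. SPRY4 (ENSG00000187678, chr5:142310427-142326455, minus strand in GENCODE 29 on GRCh38), an inhibitor of RAS to ERK signalling, gave 0, 0 and 0 CPM with empty vector and 122, 77.0 and 93.3 CPM with CIC::NUTM1. It was at least 769.7-fold higher (adjusted p = 0.00026). VGF, which encodes a secreted neuropeptide precursor, gave 1.49, 1.52 and 0.641 CPM with empty vector and 901, 465 and 583 CPM with CIC::NUTM1 (log2 change 9.04 ± 0.44, adjusted p = 1.6e-05). The PEA3 factor ETV4 gave 0.401, 0.527 and 0.601 CPM with empty vector and 255, 156 and 211 CPM with CIC::NUTM1 (log2 change 8.62 ± 0.35, adjusted p = 1.6e-06), and its relative ETV5 gave 1.14, 0.849 and 0.441 CPM with empty vector and 311, 198 and 305 CPM with CIC::NUTM1 (log2 change 8.42 ± 0.37, adjusted p = 6.2e-06). For all 4 genes every fusion library lay above every control library, and fusion replicate 2 was the lowest of its group. That replicate was also the lowest of its group for DUSP6, FOS, NR4A3, CCN2, DLL1 and EPHA2, whose values follow below. The reason was not tested.

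Adaptors, phosphatases and cell cycle genes among the CIC targets rose as well. SHC3 and SHC4, adaptors that link receptors to RAS, rose by 7.83 and 7.37 on the log2 scale. The MAP kinase phosphatases DUSP6 and DUSP4 rose by 6.25 and 4.19. For DUSP6, which removes phosphate from ERK, the libraries gave 0.343, 1.29 and 0.321 CPM with empty vector and 72.0, 37.8 and 62.1 CPM with CIC::NUTM1. The AP-1 subunit FOSL1 rose by 4.56 and ETV1 by 4.35. CCND1, the cyclin that drives entry into S phase, gave 97.4, 79.2 and 84.5 CPM with empty vector and 438, 303 and 407 CPM with CIC::NUTM1 (log2 change 2.14 ± 0.15, adjusted p = 9.0e-06). The fusion libraries all lay above the controls. The member with the highest level that did not pass the test was CCND2, another D-type cyclin, at 41.1, 45.9 and 36.1 CPM with empty vector and 35.8, 39.7 and 38.8 CPM with CIC::NUTM1 (log2 change -0.11 ± 0.09, adjusted p = 0.51).

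Some of these genes carry the octamer that CIC binds close to their start. Windows around it are shown for VGF, SHC4 and SPRED3 from the CIC list, for the immediate early and AP-1 genes CCN2, FOSB and MAFF, for the Eph receptor EPHA2, the stress kinase PLK3, the junction gene CLDN1, the ligand WNT5A and the integrin ITGA6. ATP6V1F, a vacuolar pump subunit that fell by 0.28 and lost its call in 1 refit (adjusted p = 0.069 without empty-vector replicate 3), is added for contrast. Sequences are RefSeq promoters on GRCh38.p14, written on the strand of the gene, with capitals marking TGAATGAA, TCAATGAA or TGAATGGA or, where the match is on the other strand, their reverse complements.
VGF: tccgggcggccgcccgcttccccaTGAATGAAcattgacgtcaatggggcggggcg
VGF: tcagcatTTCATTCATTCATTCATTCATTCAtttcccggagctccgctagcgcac
SHC4: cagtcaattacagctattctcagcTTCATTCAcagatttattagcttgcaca
SPRED3: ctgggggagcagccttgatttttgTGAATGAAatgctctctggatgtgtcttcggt
CCN2: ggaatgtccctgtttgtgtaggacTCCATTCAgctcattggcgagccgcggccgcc
MAFF: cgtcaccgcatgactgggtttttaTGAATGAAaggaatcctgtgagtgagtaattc
FOSB: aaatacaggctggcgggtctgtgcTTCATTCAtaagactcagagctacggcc
EPHA2: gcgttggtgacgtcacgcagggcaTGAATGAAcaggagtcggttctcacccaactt
PLK3: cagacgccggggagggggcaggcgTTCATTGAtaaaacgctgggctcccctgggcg
CLDN1: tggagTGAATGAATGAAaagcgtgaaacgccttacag
WNT5A: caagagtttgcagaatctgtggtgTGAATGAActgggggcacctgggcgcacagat
ITGA6: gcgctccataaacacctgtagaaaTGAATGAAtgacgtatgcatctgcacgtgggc
ATP6V1F: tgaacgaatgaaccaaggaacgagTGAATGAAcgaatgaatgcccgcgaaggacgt
The VGF windows are chr7:101165628-101165683 (minus strand) and chr7:101165765-101165819 (minus strand), and the other windows follow in the order shown. SHC4 is at chr15:48963895-48963946 (minus strand), SPRED3 at chr19:38389575-38389630 (plus strand), CCN2 at chr6:131951412-131951467 (minus strand), MAFF at chr22:38201943-38201998 (plus strand) and FOSB at chr19:45467969-45468020 (plus strand). EPHA2 is at chr1:16156072-16156127 (minus strand), PLK3 at chr1:44800316-44800371 (plus strand) and CLDN1 at chr3:190322660-190322696 (minus strand). WNT5A is at chr3:55487494-55487549 (minus strand), ITGA6 at chr2:172427188-172427243 (plus strand) and ATP6V1F at chr7:128862618-128862673 (plus strand). In VGF the octamer occurs 6 times in the 300 bases, 5 of them as overlapping matches in 1 tandem run. In SHC4 and FOSB the match spans the annotated start, with its first base at position -3.

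Promoters with a CIC octamer were more frequent the further genes rose. The promoter table held 300 bases (250 before to 50 after the start) for 12205 of the tested genes. Any of the 3 octamers on either strand was present in 10.1% of 158 promoters of genes that rose by 4 or more on the log2 scale. The share was 9.14% of 186 for rises of 2 to 4, 5.19% of 231 for rises of 1 to 2 and 2.92% of 926 for smaller rises. It was 1.91% for genes not called, 1.73% for fallen genes, 2.26% for all tested genes and 3.39% for all 27305 promoters of the table. The AP-1 motif (TGACTCA or TGAGTCA) declined in the same order, at 9.49%, 7.53%, 3.9% and 1.73%, with 2.8% in genes not called and 4.92% in all promoters. The ETS motif CCGGAAGT ran the other way, from 0% through 1.61% and 2.16% to 6.48%, with 8.55% in genes not called and 4.44% in all promoters. Base composition moved with these classes. The median GC content was 52.5% in the strongest class, 64.0% where the rise was 1 to 2 and 67.3% in the weakest, against 65.3% in genes not called, and its part in the motif shares was not tested. Matches of TGAATGAA can overlap each other in tandem runs, each promoter was counted once, and a match is a string in the sequence, not a measured binding site.

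**Figure D2:**
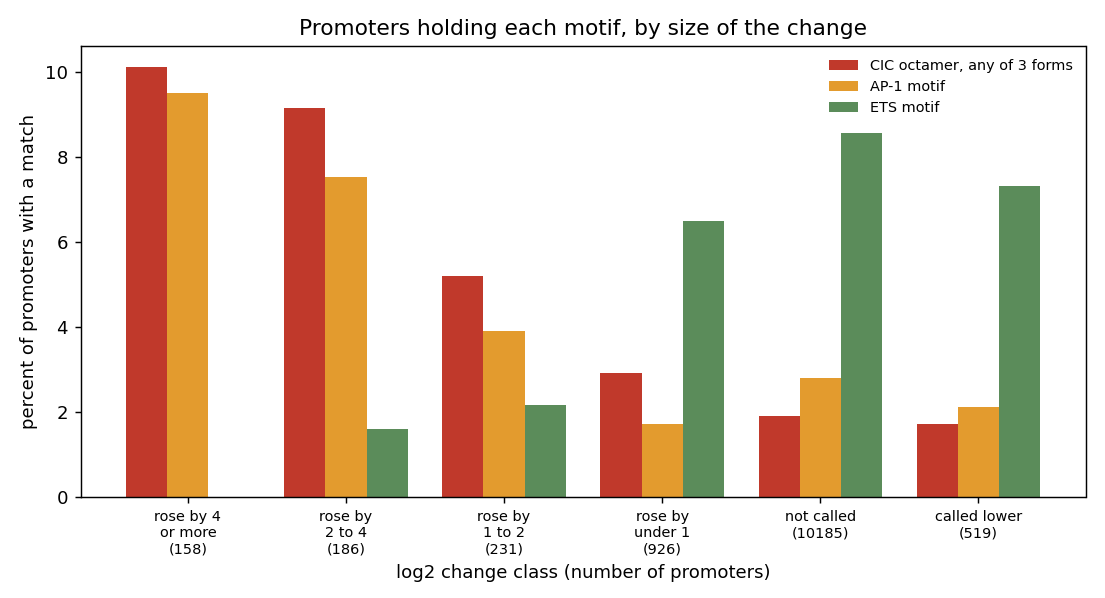
Percent of promoters (vertical axis, from 0) that hold a CIC octamer, an AP-1 motif or an ETS motif on either strand, by class of log2 change, with the number of promoters in brackets. Octamer and AP-1 shares are highest where genes rose by 4 or more (10.1% and 9.49%), and the ETS share is highest in genes not called (8.55%).

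Many feedback inhibitors of the ERK pathway rose. This list shares members with the CIC targets above, SPRED3 among them, and is not a separate result for those genes. Of 27 tested genes 17 rose and 1 fell, with a median of 0.47. SPRED3 and SPRED2, which block RAF activation, rose by 3.88 and 2.7 on the log2 scale. For SPRED2 the libraries gave 23.3, 21.8 and 25.1 CPM with empty vector and 167, 116 and 172 CPM with CIC::NUTM1, with no overlap between the groups. DUSP5 and DUSP9, phosphatases of the same family, did not pass the test, at 11.6, 9.57 and 11.7 CPM with empty vector and 12.6, 11.3 and 13.2 CPM with CIC::NUTM1 for DUSP5 (log2 change 0.18 ± 0.14, adjusted p = 0.48) and 127, 136 and 142 CPM with empty vector and 140.0, 122 and 114 CPM with CIC::NUTM1 for DUSP9 (log2 change -0.11 ± 0.09, adjusted p = 0.49). The 1 member that fell, RASA1, a RAS GTPase activator, changed by -0.32 and lost its call in 5 of the 6 refits (adjusted p = 0.14 without empty-vector replicate 1, 0.053 without empty-vector replicate 2, 0.071 without empty-vector replicate 3, 0.15 without CIC::NUTM1 replicate 1 and 0.10 without CIC::NUTM1 replicate 3).

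Immediate early genes, which respond within minutes to growth factor signalling, also rose. Of 31 tested 17 rose and 1 fell (median 0.65), and 12 rises were kept in each of the 6 refits. FOS gave 4.23, 4.42 and 4.25 CPM with empty vector and 52.7, 23.2 and 41.8 CPM with CIC::NUTM1 (log2 change 3.18 ± 0.25, adjusted p = 1.6e-06). NR4A3, an orphan nuclear receptor, gave 3.03, 3.54 and 4.21 CPM with empty vector and 65.9, 37.2 and 56.3 CPM with CIC::NUTM1 (log2 change 3.87 ± 0.19, adjusted p = 9.5e-12). CCN2, a secreted matrix protein, gave 2.92, 2.87 and 3.41 CPM with empty vector and 51.8, 22.5 and 36.4 CPM with CIC::NUTM1 (log2 change 3.58 ± 0.27, adjusted p = 3.1e-07). In these 3 genes the groups were far apart. FOSB, the kinase gene SGK1 and CCN1 rose by 3.01, 3.01 and 1.70. Not every member moved this way. JUN, the main partner of FOS, gave 448, 366 and 424 CPM with empty vector and 444, 449 and 350.3 CPM with CIC::NUTM1 (log2 change 0.01 ± 0.10, adjusted p = 0.97), and JUND, another partner, fell slightly (log2 change -0.32 ± 0.08, adjusted p = 0.0045). Among small MAF partners, MAFF rose by 3.06.

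**Figure D3:**
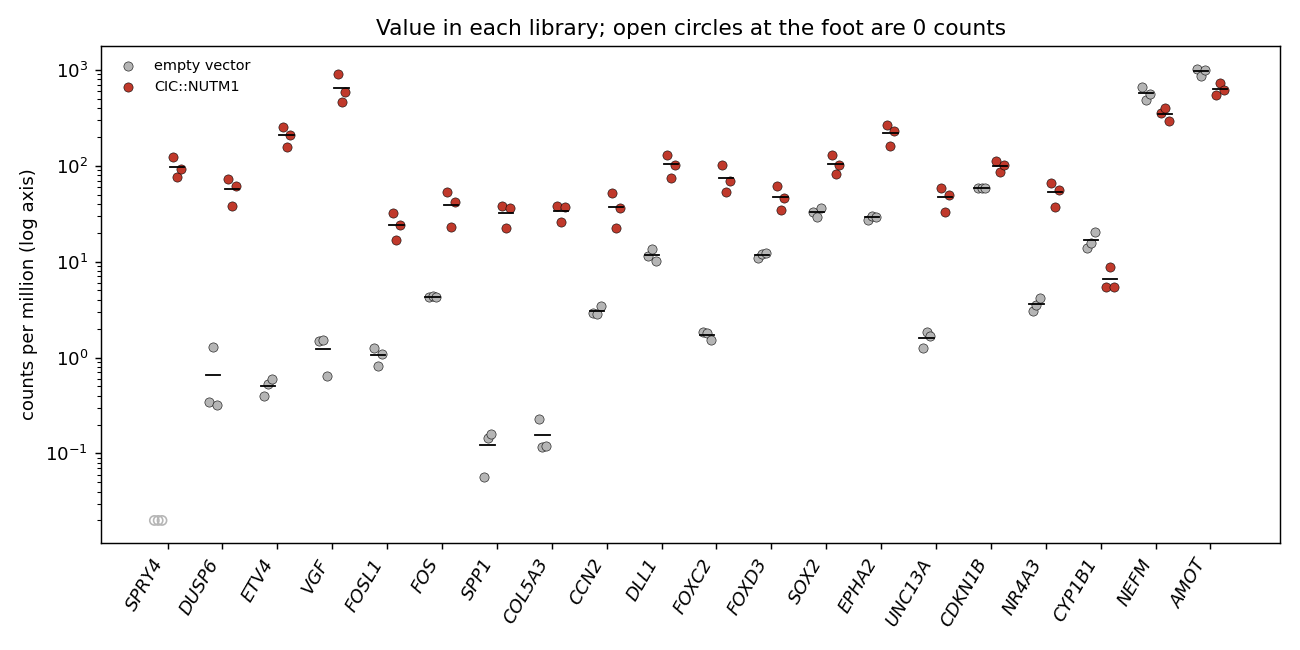
CPM in each library (vertical axis, logarithmic) for 20 genes of the text, with empty vector in grey and CIC::NUTM1 in red. Short lines are group means and open circles at the foot are 0 counts. In each gene shown the groups do not overlap, with the fusion above for all but CYP1B1, NEFM and AMOT, where it lies below.

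Some secreted growth factors rose, several of them from near 0 in the controls. Among the 12 tested FGF ligands 4 rose and 1 fell, and the falls numbered 0 without control library 1, 2 or 3 or fusion library 1 or 3 and 2 without fusion library 2. FGF1 and FGF7 passed the filter only through a fusion group, so the family count is not given weight. With 10 counts required in every library 0 FGF ligands and 4 TGF-beta superfamily ligands rose. FGF1, which binds all FGF receptors, gave 0, 0 and 0 CPM with empty vector and 4.56, 3.56 and 3.99 CPM with CIC::NUTM1 and was at least 31.9-fold higher (adjusted p = 3.2e-09), and FGF7, the keratinocyte growth factor, was at least 30.1-fold higher (adjusted p = 6.8e-09). FGF18 rose by 3.02. Of 25 tested TGF-beta superfamily ligands 6 rose and 1 fell, and the falls numbered 2 without fusion library 1, 3 without fusion library 2 and 0 without fusion library 3. INHBA, the activin subunit, gave 0.114, 0.351 and 0.120 CPM with empty vector and 5.34, 2.83 and 4.40 CPM with CIC::NUTM1 (log2 change 4.22 ± 0.41, adjusted p = 2.6e-08), BMP7 gave 74.7, 76.5 and 81.1 CPM with empty vector and 254, 169.5 and 237 CPM with CIC::NUTM1 (log2 change 1.505 ± 0.11, adjusted p = 1.8e-07), and TGFB3 rose by 1.66. PDGFA rose by 2.44, the EGF-family ligand HBEGF by 0.91 and the cytokine LIF by 2.06. IGF2, a fetal insulin-like growth factor, rose by 2.90. WNT4 and WNT5A were the 2 of 11 tested WNT ligands that rose, by 2.27 and 1.59. Over all genes 11.5% rose, and 1 WNT ligand did with 10 counts required in every library.

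Receptor tyrosine kinases and their adaptors moved in both directions. Of 35 receptor tyrosine kinases 8 rose and 3 fell, with 4 rises and 1 fall kept in all 6 refits. The rises numbered 5 without control library 2 and the falls 1 without control library 2 or fusion library 3. MET, the receptor of hepatocyte growth factor, rose by 0.94, and LMTK3 by 0.92. DDR1, a collagen receptor, fell (log2 change -0.40 ± 0.09, adjusted p = 0.0029). Receptor adaptors other than SHC3 and SHC4 included DOK5 (3.18) and DOK7 (2.43), and IRS2, an adaptor of the insulin receptor, rose by 1.35. Of 35 adaptors 10 rose and 3 fell. The rises numbered 6 without control library 3 or fusion library 3, and the falls 1 without control library 1 or 2 or fusion library 1 and 0 without control library 3 or fusion library 3. Of 31 protein tyrosine phosphatases 11 rose, with PTPN5, a phosphatase of neurons that acts on ERK, at 2.05 and the CIC target PTPN9 at 1.44. A further 3 fell, and the falls numbered 1 without control library 1 or 3 or fusion library 1.

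The NOTCH ligands DLL1 and JAG1 rose. Of 25 tested genes of the pathway 4 rose, a share of 16% beside 11.5% over all genes, and 0 fell. The falls numbered 1 without control library 1 or fusion library 2 and 2 without fusion library 1. DLL1 gave 11.4, 13.7 and 10.2 CPM with empty vector and 131, 75.3 and 103 CPM with CIC::NUTM1 (log2 change 3.11 ± 0.20, adjusted p = 9.4e-07) and JAG1 gave 12.4, 14.6 and 14.4 CPM with empty vector and 63.0, 47.9 and 66.1 CPM with CIC::NUTM1 (log2 change 2.08 ± 0.12, adjusted p = 1.1e-11). DTX1, a regulator of NOTCH that is also a NOTCH target, gave 0.401, 0.820 and 0.641 CPM with empty vector and 25.1, 10.8 and 16.9 CPM with CIC::NUTM1 (log2 change 4.72 ± 0.33, adjusted p = 5.5e-08). All 3 were clear of their controls in every library. Of 20 TGF-beta targets and SMAD feedback genes 11 rose. The cell cycle inhibitor CDKN2B rose by 1.41, and the decoy receptor BAMBI by 0.84. ID2, a target of BMP signalling, fell (log2 change -0.40 ± 0.07, adjusted p = 0.00027). Among 27 targets of YAP and TEAD 11 rose, led by CCN2, by ANKRD1 (2.45), by MYOF (2.23) and by the kinase NUAK2 (1.65). DESeq2 called 2 of these targets lower. The hedgehog effector GLI3 rose by 1.74 and the receptor PTCH1 by 1.21.

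Among transcription factors, families that pattern the embryo held many risen members. Of 37 FOX factors 13 rose and 0 fell, yet the median of the family was 0.05. The FOX falls numbered 1 without fusion library 1 or 2. FOXC2 gave 1.83, 1.79 and 1.52 CPM with empty vector and 101, 53.3 and 69.3 CPM with CIC::NUTM1 (log2 change 5.44 ± 0.31, adjusted p = 2.6e-06). FOXA2, a factor of endoderm and floor plate, rose by 3.4, FOXB1 by 2.36 and FOXD3, a neural crest factor, by 2.01. Of 15 SOX factors 6 rose, and DESeq2 called 1 lower. SOX2, a factor of stem cells and neural progenitors, gave 33.0, 28.96 and 36.1 CPM with empty vector and 131, 82.8 and 102 CPM with CIC::NUTM1 (log2 change 1.69 ± 0.17, adjusted p = 2.6e-05), and its groups were well apart. SOX21 rose by 0.97 and SOX5 by 1.24.

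Homeobox genes outside the HOX clusters followed, with 30 of 121 risen and 4 fallen. The falls numbered 0 without control library 2 and 2 without control library 3 or fusion library 3. SHOX, a factor of limb growth, gave 0.114, 0.0293 and 0 CPM with empty vector and 11.5, 4.74 and 8.34 CPM with CIC::NUTM1 and was at least 64.6-fold higher (adjusted p = 2.7e-10). PAX5, known for B cell development, gave 0.629, 0.176 and 0.561 CPM with empty vector and 12.4, 6.81 and 11 CPM with CIC::NUTM1 (log2 change 4.56 ± 0.36, adjusted p = 8.3e-10), and ONECUT3 rose by 4.44. The HOX genes changed by less. Of 37 tested 12 rose and 3 fell, and the median was 0.23. The HOX rises numbered 7 without fusion library 1 and the falls 0 without control library 1 or fusion library 3 and 1 without control library 3. HOXA11 rose by 0.70 and HOXB8 by 0.58. Of 22 GATA, T-box and ZIC factors 8 rose, among them ZIC1 (1.43) and GATA3 (1.10), and DESeq2 called 1 lower.

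Other factor families gave further single genes with large changes. Of 41 nuclear receptors 13 rose, and DESeq2 called 1 lower. RXRG, a retinoid X receptor, rose by 2.19, NR4A1 by 1.67 and PPARG, the receptor that drives fat cell formation, by 1.02. Of 80 basic helix-loop-helix factors 13 rose and 4 fell, beside 11.5% and 3.83% over all genes. MYCN rose by 2.43, the pancreas and cerebellum factor PTF1A by 2.60 and the neuronal factor NEUROG2 by 1.41, whereas HAND1, a factor of trophoblast and heart, fell (log2 change -0.48 ± 0.10, adjusted p = 0.00065). The ETS factor SPI1, known from blood cells, rose by 4.51, and ETS1 by 1.73. KLF13 fell (log2 change -0.49 ± 0.09, adjusted p = 0.00034). Of 440 ZNF-named zinc finger genes 24 rose and 23 fell, shares of 5.45% and 5.23% beside 11.5% and 3.83% over all genes. Their rises numbered 15 without fusion library 3, and their falls 13 without control library 1, 8 without control library 2, 10 without control library 3, 9 without fusion library 1 and 14 without fusion library 3. ZNF703, a repressor known from breast tissue, fell (log2 change -0.32 ± 0.06, adjusted p = 0.00073).

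Chromatin regulators rose too. Of 50 polycomb and remodelling genes 13 rose and 2 fell, and the falls numbered 1 without control library 1 or 2 or fusion library 1 or 3 and 0 without control library 3. CHD5, a remodeller of neurons, gave 1.49, 1.61 and 1.40 CPM with empty vector and 18.7, 9.30 and 12.2 CPM with CIC::NUTM1 (log2 change 3.14 ± 0.26, adjusted p = 2.2e-09). CHD2, CHD9 and CHD7 rose by 1.09, 0.99 and 0.80, and the polycomb gene BMI1 by 0.80. The histone deacetylase gene HDAC5 rose by 0.45.

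Several families of cell surface genes that sort and guide cells held risen members, and some of these families moved in both directions. Of 38 cadherins and non-clustered protocadherins 14 rose and 3 fell, and 14 rises and 0 falls were kept in all 6 refits. The falls numbered 1 without control library 2 or 3. CDH4, retinal cadherin, gave 0.916, 1.02 and 1.16 CPM with empty vector and 25.5, 18.6 and 26.1 CPM with CIC::NUTM1 (log2 change 4.47 ± 0.22, adjusted p = 1.3e-12). PCDH15, a cadherin of the inner ear, rose by 4.85 and CDH15, the cadherin of muscle, by 2.17. None of the 7 tested clustered protocadherins was called in either direction. Among 22 ephrins and Eph receptors 8 rose, and DESeq2 called 1 lower. EPHA2 gave 27, 30.2 and 29.5 CPM with empty vector and 268, 160.4 and 233 CPM with CIC::NUTM1 (log2 change 2.92 ± 0.18, adjusted p = 4.6e-06) and EPHB3 gave 6.75, 5.09 and 5.13 CPM with empty vector and 94.3, 49.6 and 76.2 CPM with CIC::NUTM1 (log2 change 3.71 ± 0.29, adjusted p = 5.8e-05). EFNB2, a ligand, rose by 0.97.

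Guidance genes moved in both directions. SEMA3C, a secreted semaphorin, rose by 1.80, its receptor NRP1 by 1.61 and the adhesion gene FLRT3 by 1.78, while UNC5B, a netrin receptor, fell (log2 change -0.34 ± 0.07, adjusted p = 0.00095). The tight junction gene CLDN1 gave 2.75, 3.07 and 2.81 CPM with empty vector and 16.1, 10.1 and 16.9 CPM with CIC::NUTM1 (log2 change 2.30 ± 0.21, adjusted p = 1.3e-08). Among 21 integrins 5 rose, with ITGA11 at 2.54, ITGA6 at 0.83 and ITGAV at 0.74. Over all genes 11.5% rose, and 3 integrins did with 10 counts required in every library. DESeq2 called 1 integrin lower. Among tetraspanins TSPAN4 rose by 0.42, and the connexin gene GJA1 rose by 0.48. DESeq2 called 4 tetraspanins, 4 claudin and tight junction genes and 3 desmosome and hemidesmosome genes higher, and 2 of each list lower.

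Genes of the extracellular matrix rose in several families. Of 40 tested collagen chains 19 rose and 2 fell, the median was 0.58, and 14 rises were kept in all 6 refits. The collagen falls numbered 0 without control library 3, 1 without fusion library 1 or 3 and 4 without fusion library 2. COL5A3, a chain of fibrillar collagen V, gave 0.229, 0.117 and 0.120 CPM with empty vector and 38.0, 25.9 and 37.2 CPM with CIC::NUTM1 (log2 change 7.81 ± 0.33, adjusted p = 1.3e-12). COL14A1, which sits on the surface of collagen fibrils, gave 6.24, 5.45 and 7.21 CPM with empty vector and 35.5, 25.2 and 35.2 CPM with CIC::NUTM1 (log2 change 2.34 ± 0.18, adjusted p = 9.0e-08). COL6A6 rose by 3.80 and COL12A1 by 2.58. COL18A1, a basement membrane chain that did not pass the test, gave 157, 149.5 and 175 CPM with empty vector and 183, 161 and 150.3 CPM with CIC::NUTM1 (log2 change 0.04 ± 0.08, adjusted p = 0.82).

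Matricellular and elastic fibre genes rose with the collagens. SPP1, osteopontin, gave 0.0572, 0.146 and 0.160 CPM with empty vector and 37.8, 22.2 and 36.6 CPM with CIC::NUTM1 (log2 change 7.89 ± 0.31, adjusted p = 1.8e-14). THBS1, thrombospondin 1, gave 0.343, 0.146 and 0.200 CPM with empty vector and 8.10, 6.47 and 8.55 CPM with CIC::NUTM1 (log2 change 5.14 ± 0.39, adjusted p = 5.3e-10). ELN, elastin, gave 0, 0 and 0.321 CPM with empty vector and 4.98, 2.03 and 4.61 CPM with CIC::NUTM1 (log2 change 5.11 ± 0.68, adjusted p = 7.0e-05), and the fibrillins FBN3 and FBN1 rose by 2.25 and 2.10. In SPP1, THBS1 and ELN the groups did not overlap. Of 16 thrombospondins, CCN proteins and SPARC relatives 8 rose, with a median of 1.14, and SMOC1 fell (log2 change -0.52 ± 0.09, adjusted p = 0.00015). Among proteoglycans LUM, lumican, rose by 1.42 and VCAN, versican, by 1.19. The protease ADAMTS18 rose by 3.97. Where the lists here hold genes at the floor, setting those at their bound left the medians given as they are.

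**Figure D4:**
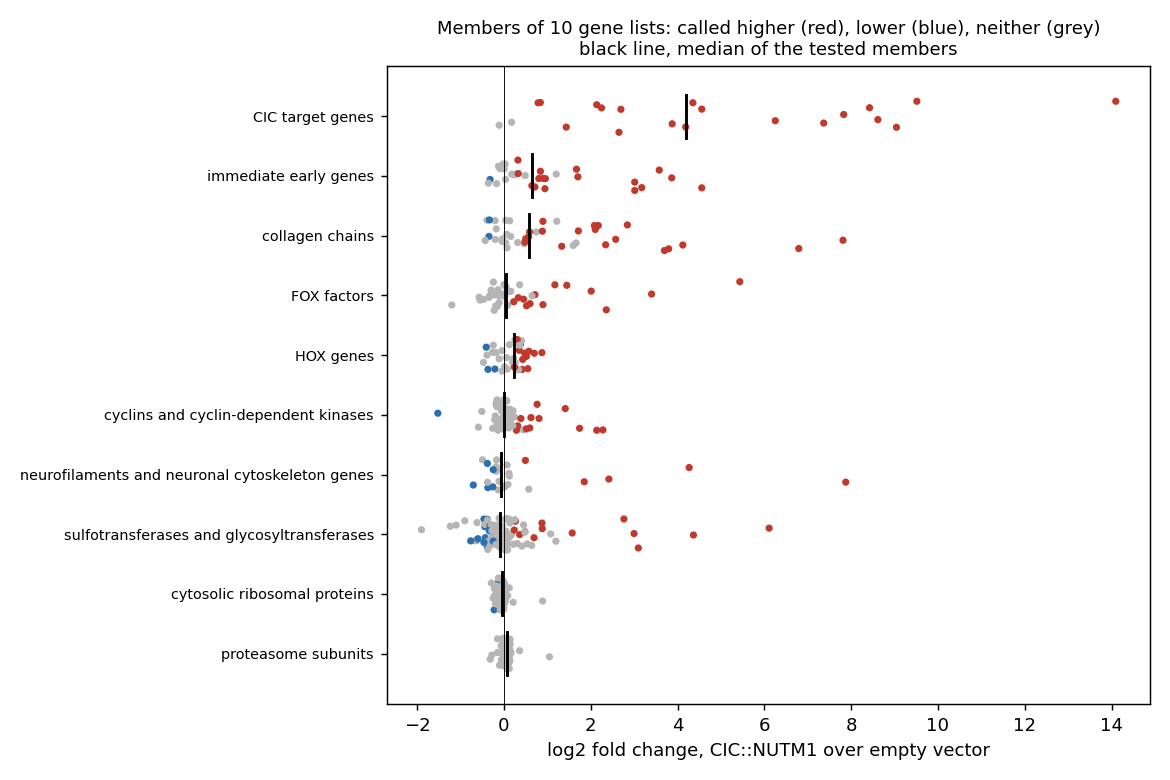
Log2 fold change (horizontal axis) of every tested member of 10 lists, with members called higher in red, called lower in blue and neither in grey. Black lines are list medians. CIC targets centre at 4.19, while FOX factors and cyclins centre near 0 with a tail of risen members.

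Genes that are normally restricted to differentiated tissues appeared from near 0. Keratins are 1 example. The table holds 70 keratins, of which 9 were tested, since the rest had too few counts in every group, and 5 rose, a count of 8 without a filter. The tested ones include genes that passed the filter only through a fusion group, so their count and median are not given weight. KRT20 (ENSG00000171431, chr17:40875941-40885227, minus strand), the keratin of gut and urothelium, gave 0, 0 and 0 CPM with empty vector and 43.9, 29.5 and 43.9 CPM with CIC::NUTM1 and was at least 309-fold higher (adjusted p = 1.7e-09). KRT25, a hair follicle keratin, was at least 18.3-fold higher (adjusted p = 3.2e-06). Near-identical keratin genes could share reads, so single members are uncertain. Of 20 mucins 9 were tested and 4 rose, and some of these too passed the filter only through a fusion group. MUC5AC, the gastric surface mucin, gave 0.114, 0 and 0 CPM with empty vector and 25.6, 15.3 and 29.1 CPM with CIC::NUTM1 and was at least 184-fold higher (adjusted p = 1.4e-09). MUC6, MUC16 and MUC2 were at least 35.8-fold higher, at least 12.7-fold higher and at least 16.6-fold higher, with control libraries at or under the floor.

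Muscle and nerve genes were among those that appeared. Of 16 muscle structural genes 8 rose. TNNT3, fast troponin T, gave 0, 0 and 0.160 CPM with empty vector and 3.54, 2.18 and 3.16 CPM with CIC::NUTM1 (log2 change 5.66 ± 0.56, adjusted p = 3.4e-08), TNNI2, its partner, was at least 16.01-fold higher (adjusted p = 0.00013), and the actin-binding muscle gene SYNPO2 rose by 3.58. With 10 counts required in every library, which leaves out genes near 0 in the controls, the muscle list had 2 rises. Rises under that filter numbered 0 for keratins, 0 for mucins, 0 for FGF ligands, 1 for WNT ligands, 9 for cadherins, 11 for collagens, 3 for integrins, 4 for thrombospondins and their relatives, 4 for potassium channels, 17 for solute carriers and 6 for protein tyrosine phosphatases. The epithelial sodium channel subunit SCNN1G gave 0, 0 and 0 CPM with empty vector and 12.4, 5.93 and 8.44 CPM with CIC::NUTM1 and was at least 70.4-fold higher (adjusted p = 2.7e-10). The secretory peptide SCG2 was at least 41.9-fold higher (adjusted p = 1.1e-09), and TAC1, the substance P precursor, rose by 2.94. UNC13A, which primes synaptic vesicles, gave 1.26, 1.84 and 1.68 CPM with empty vector and 58.8, 32.8 and 49.1 CPM with CIC::NUTM1 (log2 change 4.82 ± 0.34, adjusted p = 1.7e-05). LRRTM3, a synaptic adhesion gene, gave 0, 0.0293 and 0.240 CPM with empty vector and 16.02, 9.72 and 17.6 CPM with CIC::NUTM1 (log2 change 7.21 ± 0.52, adjusted p = 9.0e-07).

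Channel and transporter genes held single members with large rises. Of 49 potassium channels 9 rose, beside 11.5% over all genes, and 4 did with 10 counts required in every library. DESeq2 called 2 potassium channels lower. KCNJ10, the inward rectifier of glia, gave 0.0572, 0.264 and 0 CPM with empty vector and 4.44, 3.37 and 3.52 CPM with CIC::NUTM1 (log2 change 4.84 ± 0.53, adjusted p = 1.8e-07), and KCNK9 rose by 4.69. Of 264 solute carriers 28 rose and 16 fell, shares of 10.6% and 6.06% beside 11.5% and 3.83% over all genes. SLC1A6, a neuronal glutamate transporter, gave 0, 0.0586 and 0 CPM with empty vector and 22.7, 12.7 and 17.8 CPM with CIC::NUTM1 and was at least 140.1-fold higher (adjusted p = 1.2e-12). The solute carrier falls numbered 9 without control library 2 or fusion library 3 and 8 without control library 3. In the imprinted DLK1 to DIO3 region RTL1 and MEG3 rose from control libraries at or under the floor. With 10 counts required in every library 0 genes of that list rose, so the list is not given weight. RTL1 gave 0, 0 and 0 CPM with empty vector and 16.9, 10.4 and 12.4 CPM with CIC::NUTM1 and was at least 105-fold higher (adjusted p = 4.8e-12), and MEG3 was at least 5.45-fold higher (adjusted p = 0.00033). RTL1 overlaps 10 annotated genes of the other strand, and the strand setting of the counting is not given in the sources used here, so its reads may include theirs.

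Genes that restrain growth rose beside genes that drive it. Of 52 cyclins, kinases and their inhibitors 12 rose, beside 11.5% over all genes. DESeq2 called 1 of them lower, and 5 fell with library totals and 4 with upper quartile factors. CDKN1B, the inhibitor p27, gave 59.2, 58.9 and 58.5 CPM with empty vector and 112, 85.8 and 103 CPM with CIC::NUTM1 (log2 change 0.77 ± 0.09, adjusted p = 2.6e-07). CDKN2D, CDKN2B and CDKN2C, inhibitors of the kinases that CCND1 activates, rose by 1.74, 1.41 and 0.81. CDKN1B was nearly equal in the 3 control libraries, and every fusion library lay above them. Of 31 p53 targets 10 rose and 0 fell, with the kinase genes PLK3 and PLK2 at 2.65 and 1.48 and the growth arrest gene GADD45A at 1.27. The rises numbered 7 with library totals, and the part of p53 itself was not tested. BAX, a p53 target that promotes apoptosis, gave 135, 119 and 135 CPM with empty vector and 146, 126 and 135 CPM with CIC::NUTM1 (log2 change 0.07 ± 0.07, adjusted p = 0.61). Of the oncofetal RNA-binding and HMGA genes, IGF2BP3 rose by 0.96 and HMGA2 by 0.84.

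Some chaperone and sterol genes rose by small amounts. Of 93 heat shock proteins and co-chaperones 14 rose, by 0.69 for DNAJB4 and 0.48 for DNAJC1, and the rises numbered 9 without control library 1 or fusion library 3. The share of 15.05% compares with 11.5% over all genes, and DESeq2 called 2 members lower. Of 25 cholesterol synthesis genes 5 rose, all by under 0.6 on the log2 scale, led by IDI1 (log2 change 0.50 ± 0.07, adjusted p = 4.5e-06). INSIG1, which restrains the pathway, fell (log2 change -0.31 ± 0.07, adjusted p = 0.0018).

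**Figure D5:**
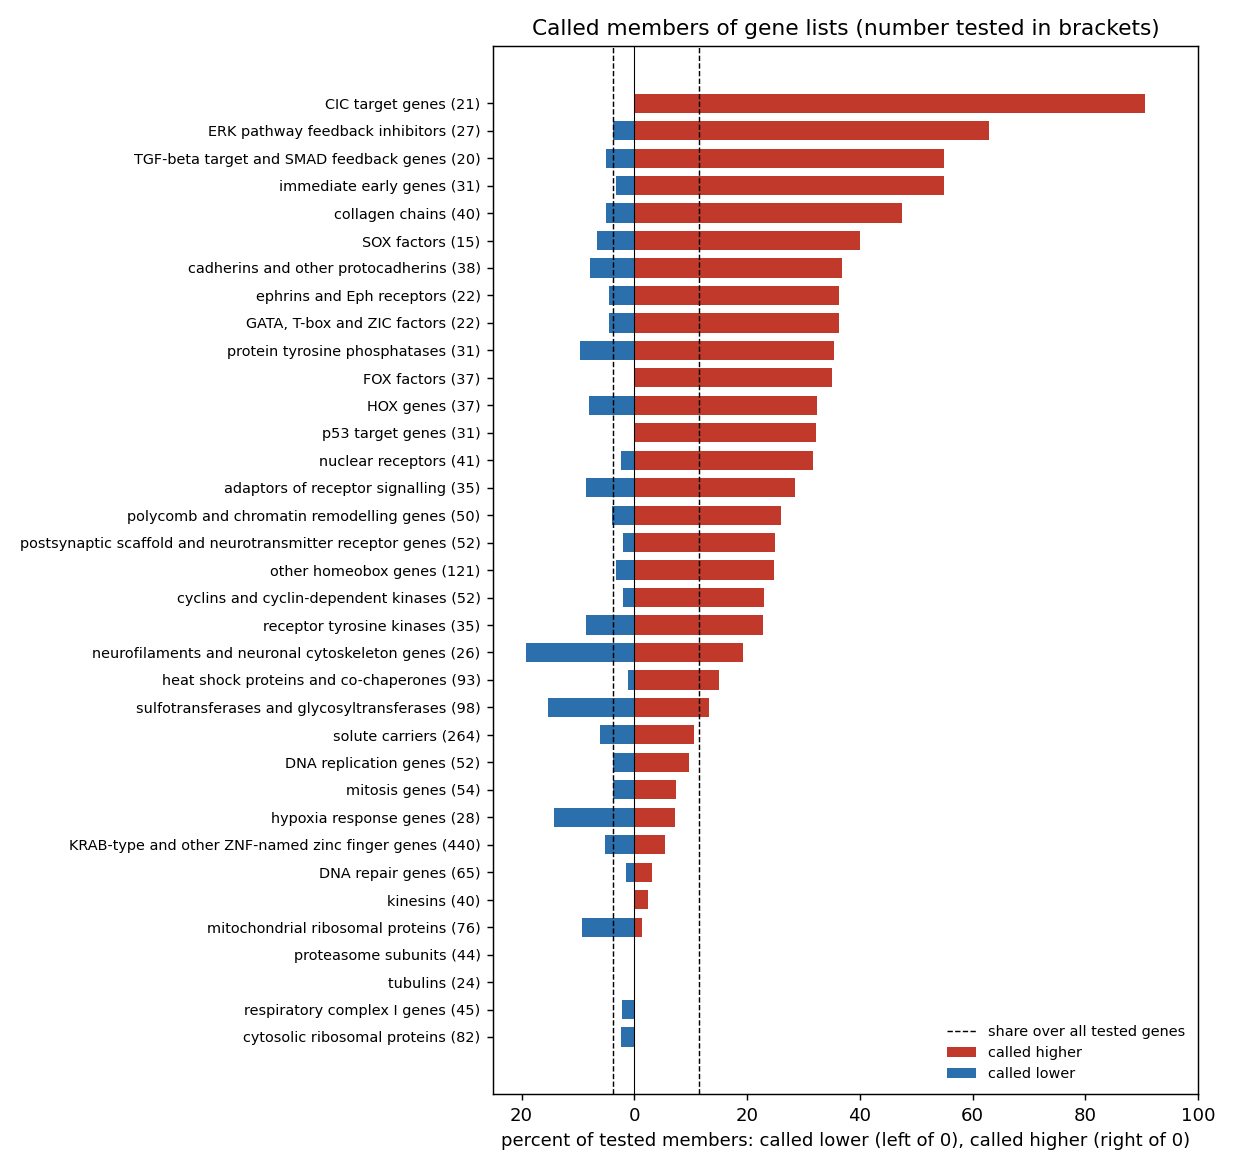
Percent of the tested members of 35 lists called higher (red, right of 0) and called lower (blue, left of 0), with the number tested in brackets. Dashed lines are the shares over all tested genes, 11.5% higher and 3.83% lower. CIC targets lie farthest right, and cytosolic ribosomal protein, proteasome and tubulin lists lie near 0 on both sides.

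Lists of the machinery that every cell uses held called genes in differing shares, to be read beside 11.5% higher and 3.83% lower over all genes. None of 24 tubulins and 44 proteasome subunits was called in either direction. At an unadjusted p under 0.05 these lists held 2 and 10 genes, and DESeq2 called 1 and 1. The tubulin falls numbered 2 without fusion library 2 or 3, the proteasome falls 1 without control library 2 and the proteasome rises 1 without fusion library 2. With library totals 2 genes of each list fell. Of 82 cytosolic ribosomal proteins 0 rose and 2 fell, and the median was -0.05. Their rises numbered 1 without control library 2 or fusion library 3, and their falls 0 without control library 1 or 3 or fusion library 2, 5 without control library 2 and 1 without fusion library 1 or 3. Of 54 mitosis genes 4 rose and 2 fell, and of 52 DNA replication genes 5 and 2. Mitosis falls numbered 1 without control library 1 or fusion library 1 or 3, 0 without control library 3 and 5 without fusion library 2, and replication falls 1 without control library 1, 2 or 3 or fusion library 1 or 3. With library totals 6 ribosomal, 8 mitosis and 4 replication genes fell. The rise of mitosis gene CDC25C was 0.50 and that of the replicative polymerase gene POLE 0.93. None of the 25 tested HLA and antigen presentation genes was called, where 4 had an unadjusted p under 0.05 and DESeq2 called 2. Their rises numbered 1 without control library 1, and their falls 1 without fusion library 1 or 2.

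Genes that make and splice messenger RNA changed in both directions. Of 137 splicing factor genes 11 rose and 4 fell, shares of 8.03% and 2.92%. Their rises numbered 7 without control library 1, 2 or 3 and 5 without fusion library 1 or 3, and their falls 1 without control library 1 and 2 without control library 3 or fusion library 2. Of 79 RNA polymerase II and mediator genes 10 rose and 4 fell, shares of 12.7% and 5.06%. Their rises numbered 6 without control library 3 or fusion library 1, and their falls 0 without control library 2, 1 without control library 3 and 2 without fusion library 1 or 3.

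Falls were small, and few genes fell far, 9 of them by 1 or more on the log2 scale. Without CIC::NUTM1 replicate 2, which lay nearest the controls in CYP1B1, INSM1 and AMOT, 48 genes fell that far. CYP1B1, an enzyme that oxidises steroids and aromatic compounds, gave 13.7, 15.6 and 20.5 CPM with empty vector and 5.40, 8.88 and 5.44 CPM with CIC::NUTM1 (log2 change -1.32 ± 0.21, adjusted p = 0.00011). EDARADD, an adaptor of the ectodysplasin receptor, gave 7.95, 7.82 and 6.81 CPM with empty vector and 3.72, 3.75 and 3.16 CPM with CIC::NUTM1 (log2 change -1.08 ± 0.20, adjusted p = 0.00033). INSM1, a factor of neuroendocrine cells, gave 10.7, 14.3 and 12.3 CPM with empty vector and 5.58, 8.26 and 5.75 CPM with CIC::NUTM1 (log2 change -0.92 ± 0.18, adjusted p = 0.00054). In each the fusion libraries all lay below the controls, and the calls held in all 6 refits that left out a library. The WNT receptor FZD10 fell (log2 change -0.79 ± 0.16, adjusted p = 0.00083), and AMOT, a binding partner of YAP, gave 1032, 859 and 995 CPM with empty vector and 547, 723 and 618 CPM with CIC::NUTM1 (log2 change -0.61 ± 0.09, adjusted p = 0.00022). AMOT was also the gene that lost the most CPM. Further falls that held in all 6 refits were those of the actin bundler PLS3 (-0.29), the chromatin protein NUCKS1 (-0.25) and the hypoxia gene NDRG1 (-0.44).

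In some families the share of fallen genes was above the 3.83% of all tested genes, and these counts changed with the library left out. Neurofilament and neuronal cytoskeleton genes had 5 of 26 fallen, beside 5 risen. NEFM, the medium neurofilament, gave 656, 482 and 564 CPM with empty vector and 351, 399.7 and 292 CPM with CIC::NUTM1 (log2 change -0.70 ± 0.13, adjusted p = 0.0057), and its call was lost in 1 refit (adjusted p = 0.058 without CIC::NUTM1 replicate 1). The neuronal cytoskeleton falls numbered 2 without control library 2 or 3 or fusion library 1, and its rises 3 without control library 2 or fusion library 1. Sulfotransferases and glycosyltransferases, which build sugar chains, had 15 of 98 fallen and 13 risen. Their falls numbered 7 without control library 1, 6 without control library 2 or fusion library 3, 1 without control library 3 and 4 without fusion library 1, and 0 were kept in all 6 refits. Of 28 hypoxia response genes 4 fell, and the falls numbered 1 without control library 1 or 3 or fusion library 1 or 3, 2 without control library 2 and 7 without fusion library 2.

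Of 76 mitochondrial ribosomal proteins 7 fell and 1 rose. MRPL57 fell (log2 change -0.39 ± 0.09, adjusted p = 0.0022) and its call held in all 6 refits. The falls of that list numbered 1 without control library 1 or 3 and 3 without fusion library 3, and with library totals or upper quartile factors they numbered 14 and 15. Of 44 TRIM ubiquitin ligases 5 fell, among them TRIM44 (-0.32) and TRIM65 (-0.32), and 3 rose. The TRIM falls numbered 2 without control library 3. IRS4, an insulin receptor substrate, gave 1383, 1249.8 and 1296 CPM with empty vector and 879.6, 1189 and 1013 CPM with CIC::NUTM1 (log2 change -0.35 ± 0.09, adjusted p = 0.020), and its call was lost in 3 refits (adjusted p = 0.053 without empty-vector replicate 1, 0.059 without empty-vector replicate 3 and 0.052 without CIC::NUTM1 replicate 3).

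A direct contrast with the CIC::DUX4 libraries, in the same fit, showed differences in both directions. Over all tested genes 6.61% differed, with 4.97% higher and 1.64% lower under CIC::NUTM1. Both fusions share the empty-vector controls, so only their direct difference is given. SPP1 gave 2.78, 1.92 and 2.18 CPM with CIC::DUX4 and was higher with CIC::NUTM1 (log2 difference 3.79 ± 0.21, adjusted p = 7.7e-11). THBS1 (log2 difference 3.27 ± 0.33, adjusted p = 2.1e-07), DLL1 (log2 difference 3.14 ± 0.21, adjusted p = 3.6e-06) and NR4A3 (log2 difference 2.89 ± 0.17, adjusted p = 1.6e-09) were higher too. SHOX (log2 difference 4.30 ± 0.40, adjusted p = 5.8e-08) and RTL1 (log2 difference 4.01 ± 0.29, adjusted p = 5.0e-09) differed by the most among the genes named here. Others were lower with CIC::NUTM1. Of the genes named here these were ANKRD1 (log2 difference -1.83 ± 0.27, adjusted p = 5.0e-05), ITGA11 (log2 difference -1.501 ± 0.29, adjusted p = 0.0014), COL12A1 (log2 difference -1.33 ± 0.21, adjusted p = 0.00016), MYOF (log2 difference -0.73 ± 0.20, adjusted p = 0.032), FBN3 (log2 difference -1.04 ± 0.30, adjusted p = 0.037) and ATP6V1F (log2 difference -0.30 ± 0.07, adjusted p = 0.0095).

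Some early response and fate genes differed between the fusions as well. FOS was higher with CIC::NUTM1 (log2 difference 1.61 ± 0.23, adjusted p = 0.00086), as were SOX2 (log2 difference 1.30 ± 0.17, adjusted p = 0.00056) and CDKN1B (log2 difference 1.20 ± 0.09, adjusted p = 1.9e-09). Of the 21 CIC targets 8 were higher with CIC::NUTM1 and 0 lower at an adjusted p under 0.05. The difference did not pass the test for ETV4 (log2 difference 0.10 ± 0.19, adjusted p = 0.86), DUSP6 (log2 difference 0.88 ± 0.30, adjusted p = 0.18), SPRY4 (log2 difference 0.99 ± 0.27, adjusted p = 0.14) or VGF (log2 difference -1.14 ± 0.27, adjusted p = 0.062), which does not show that the fusions act alike on these genes. For the falls, CYP1B1 (log2 difference -0.38 ± 0.22, adjusted p = 0.39), AMOT (log2 difference -0.04 ± 0.09, adjusted p = 0.87) and NEFM (log2 difference -0.05 ± 0.13, adjusted p = 0.89) showed no difference past the threshold.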

How the data were processed

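PolyA RNA from 293T cells was sequenced from 9 libraries, 3 per group. Per the labels, libraries were made with a directional NEBNext kit and each replicate was transfected on a separate day. Per the submitters' processing notes STAR 2.7.10b, edgeR 3.40.2, R 4.2.2 and GRCh38 were used. Their roles, the counting program, annotation and strand setting are not given in the sources used here. The authors deposited raw gene counts, used here as counts, and log2 CPM values, used as an alternative. Those log2 CPM values had Pearson r = 0.99998 across 15700 genes with values recomputed from the counts (genes are not independent replicates).

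Genes passing filterByExpr (17576) were scaled by TMM and fitted with edgeR 4.0.16 (R 4.3.3) to all 9 libraries, 1 mean per group, by robust quasi-likelihood F tests with Benjamini-Hochberg adjustment (threshold 0.05). CPM values of single genes are counts divided by the TMM-scaled library total and put on the usual CPM scale, and p-values measure the spread between replicate transfections of 1 line. The biological coefficient of variation was 10.1%. On simulated counts with 200 changed genes of 17138, the fit recovered 94% of 2-fold and 100% of 4-fold changes, with 6.28% false calls. Every simulated gene had the same dispersion (0.0102), and changed genes lay above a mean of 1 CPM, with as many raised as lowered. These rates therefore do not carry over to changes under 2-fold, to genes near 0 or to genes with more spread. Same-numbered libraries did not deviate together (r = 0.05, -0.00026 and 0.0021), so replicates were not treated as paired.

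The comparison, the 137 lists and the members named (the strongest called genes overall and per list, with a mean of at least 1 CPM in the higher group, and the best expressed uncalled ones) were chosen with earlier results of these data known. A few symbol patterns (integrins, SSX, TEX, translation factors) were corrected after their matches were seen. Of the genes named in the text, 80 of 167 overlap an annotated gene of the other strand, whose reads may be included. Promoters are from RefSeq (GRCh38.p14), positions from GENCODE 29. Figures used matplotlib 3.10.9. Alternatives were other scalings, filters and tools (DESeq2 1.42.0, limma 3.58.1), 6 libraries only, a replicate block and each library left out. Some genes of these lists are not reported here.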

Additional observations from a re-analysis of the deposited data

Results flagged for a closer look

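Reads of genes outside the test also differed between the groups. The 45124 genes of the count table below the abundance filter took, per library scaled to a common total (RPM), 1071.83, 1072.61 and 943.39 with empty vector and 1588.36, 1401.99 and 1498.88 RPM with CIC::NUTM1. The mean with the fusion was 1.454 times that of the controls, and every fusion library lay above every control library. It was singled out because these genes lie outside the main test, and the fit without a filter takes them in. The CIC::DUX4 libraries gave 1969.48, 1428.5 and 1324.51 RPM. Between 5311 and 7038 of these genes had at least 1 read in a control library, against 7135 to 8129 in a fusion library, although the fusion libraries were not deeper (17123926 to 26465985 counts against 17293867 to 33655445).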

How the results depend on the processing

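Every alternative gave more risen than fallen genes, and no called gene changed sign in any alternative that gave it a value. Of 2018 risen and 673 fallen genes, 1337 and 160 kept their calls in each of the 6 refits that left out 1 library. Leaving out 1 library at a time gave 1625 to 2134 risen and 278 to 977 fallen genes, with 793 to 994 risen and 7 to 48 fallen by at least 1 on the log2 scale. With library totals or upper quartile factors 1138 and 1124 genes fell, and these scalings moved the median change of all genes by -0.043 and -0.0408. A fit with the replicate number as a block gave 2012 risen and 727 fallen genes, and the numbers are not taken as a pairing. Genes that fell by at least 1 numbered 16 with library totals, 15 with upper quartile factors, 21 without a filter and 17 with limma-trend, and genes that rose that far 402 with 10 counts required in every library. Without a filter 2161 rose and 920 fell, and with DESeq2 2097 and 701. With TGAATGAA alone, 2.86% of promoters of risen genes held a match, against 1.21% of those of all tested genes. For the 3 octamers these shares were 4.8% and 2.26%. Depth limits the genes near 0 in the controls, where only a bound of the fold can be given. With genes at the floor set to their bound, the median of the keratin list is 0.95 in place of 5.43 and that of the muscle list 1.75 in place of 2.01. The causes were not tested.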
